A study of Mus musculus with 24 samples.

Results

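The cytosolic heat shock chaperones described here are 10 of the 21959 genes counted in mouse aorta: Hspb1, Hsp90aa1, Hsp90ab1, Ahsa1, Hspa1a, Hspa1b, Hspa8, Hspa4l, Hsph1 and Dnajb1. They were chosen by name, with earlier results of the same libraries known, as chaperone genes that were highest in wild-type aorta on plain water. The levels in that group against the other groups therefore chose the genes and are given as a description, with no test. All 10 were among the 14216 genes with enough counts to be tested.

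The study measured poly(A) RNA of the whole aorta, from the ascending part to the abdominal bifurcation, in 24 male mice. The mice carried an ATAD3A-KI genotype or were wild type (WT), and drank β-aminopropionitrile (BAPN) or plain water. BAPN inhibits lysyl oxidase, the enzyme that cross-links collagen and elastin, and is given to young mice to induce aortic aneurysm and dissection. The 6 KI-BAPN and 7 WT-BAPN mice received BAPN at 0.5% (w/v) in the drinking water for 28 days from 3 weeks of age, and the 5 KI and 6 WT mice received ordinary water, called vehicle in the labels. The labels give neither the structure of the knock-in allele nor the promoter that drives it, nor the strain, the time of day or a batch of collection. Each library is listed as a separate sample, and p-values measure the spread between these samples.

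When cytosolic proteins unfold, the transcription factor HSF1 is released from chaperones, forms trimers and binds heat shock elements, which are inverted repeats of GAA near the start of its target genes. The chaperones work in a relay. Small heat shock proteins hold unfolding proteins, J-domain proteins hand them to HSP70, nucleotide exchange factors of the HSP110 family reset HSP70, and HSP90 with its co-chaperones finishes the folding of kinases, receptors and other clients. In arterial smooth muscle the small heat shock proteins also bind to the actin cytoskeleton, and the inducible genes respond quickly to heat, stretch and handling of the tissue.

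The promoters of the members are shown because heat shock elements in them are the known input of this gene family. RefSeq windows of 300 bases, from 250 before to 50 after the start site on GRCm38.p6, were at hand for 7 of the 10 members, all but Hsp90aa1, Hsp90ab1 and Hspa8. The 250 bases before the start site are printed 5′ to 3′ along the gene's own strand for Hspb1 (chr5:135887669-135887918, plus strand), Hspa1a (chr17:34972157-34972406, minus strand), Hspa1b (chr17:34959239-34959488, minus strand) and Hsph1 (chr5:149636337-149636586, minus strand). These 4 are the matched members in which a pair of inverted units was found, and capitals mark the fixed bases of such pairs.
Hspb1: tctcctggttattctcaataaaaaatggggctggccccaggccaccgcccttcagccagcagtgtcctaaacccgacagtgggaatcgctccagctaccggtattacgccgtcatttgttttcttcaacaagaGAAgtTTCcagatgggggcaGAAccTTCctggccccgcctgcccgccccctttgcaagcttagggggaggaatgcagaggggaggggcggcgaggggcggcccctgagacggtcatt
Hspa1a: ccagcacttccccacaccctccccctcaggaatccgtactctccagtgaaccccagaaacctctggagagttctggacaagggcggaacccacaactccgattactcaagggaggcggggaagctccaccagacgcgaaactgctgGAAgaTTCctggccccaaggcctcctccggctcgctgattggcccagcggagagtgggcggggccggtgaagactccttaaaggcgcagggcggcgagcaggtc
Hspa1b: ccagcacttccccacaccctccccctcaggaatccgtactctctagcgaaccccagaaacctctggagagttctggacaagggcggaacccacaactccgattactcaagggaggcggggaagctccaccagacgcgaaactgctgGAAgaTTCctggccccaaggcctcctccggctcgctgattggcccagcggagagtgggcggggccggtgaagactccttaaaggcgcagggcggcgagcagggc
Hsph1: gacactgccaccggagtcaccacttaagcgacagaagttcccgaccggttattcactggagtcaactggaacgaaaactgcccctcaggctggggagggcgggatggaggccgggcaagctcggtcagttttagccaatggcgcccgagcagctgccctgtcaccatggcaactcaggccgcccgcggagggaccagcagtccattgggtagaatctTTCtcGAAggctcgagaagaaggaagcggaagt

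The search used GAANNTTC and TTCNNGAA, which each read the same on both strands, and the 3-unit forms GAANNTTCNNGAA and TTCNNGAANNTTC, which are reverse complements of each other and contain both shorter motifs. Hspb1 held GAANNTTC from base -117 to -110 and again from -97 to -90, counting the start site as 0. Hspa1a and Hspa1b each held it from -104 to -97, and their printed 250 bases were identical at 247 positions. Hsph1 has 2 RefSeq start sites, and the printed bases precede the first. From that start it held TTCNNGAA from -33 to -26 and a 3-unit match, TTCTGGAAAGTTC, from base 36 to 48 in the transcribed part. From the second start, whose window is chr5:149636266-149636565, the same matches lay at -54 to -47 and at 15 to 27. No match was found in the windows of Ahsa1, Hspa4l and Dnajb1, which also has 2 windows. The Ahsa1 window begins at base 87266478 and that of Hspa4l at 40745363, while the annotated genes start at 87266479 and 40744495. These windows thus do not cover the region before the annotated gene start, which was not searched. The second Dnajb1 window begins at 83608298, inside the gene, which starts at 83608193. A 2-unit motif was thus present in 4 of the 7 matched members. Counted by window, it was in 5 of their 9 windows and in 15.1% of all 32851 RefSeq windows of the same length. The 3-unit form was present in 1 of the 7 members, in 2 of the 9 windows and in 0.603% of all windows. Hspa1a and Hspa1b are near copies and the 2 windows of Hsph1 overlap, so these windows are not independent. A match describes these letters only.

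Some facts of the libraries touch every value below. Totals were 13127645 to 26490651 counts per library, and levels are given in CPM, counts relative to the library's total, scaled with TMM factors. Atad3a, the gene of the knock-in, was at 231 to 1038 CPM in KI-BAPN, 617 to 1629 CPM in KI, 24.9 to 44.8 CPM in WT-BAPN and 30.2 to 61.4 CPM in WT, so the libraries follow their genotype labels. All 8 smooth muscle markers were detected, which fits the labelled tissue. WT replicate 5 stood apart: its airway epithelium markers (8 of 8 tested) summed to 19595 CPM and its skeletal muscle markers (7 of 10 tested) to 5660 CPM, against at most 211 and 28.4 CPM in any other library. KI replicate 2 held sympathetic neuron markers (7 of 7 tested) at 1314 CPM. KI-BAPN replicate 3 held adipocyte markers at 8277 CPM and macrophage markers at 1473 CPM, the highest sums of all 24 libraries, and smooth muscle markers at 10433 CPM, the lowest. Without it the members' median log2 difference of KI-BAPN minus WT was -1.69, against -1.77 with it. The part of these markers in the chaperone levels was not tested. The members' differences against WT are given with and without WT replicate 5. In whole tissue, fewer cells of a type and less RNA per cell cannot be told apart.

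Together the 10 genes took 0.389 ± 0.199% of all counts in KI-BAPN (SD, n = 6), 0.485 ± 0.190% in KI (SD, n = 5), 0.385 ± 0.0957% in WT-BAPN (SD, n = 7) and 1.26 ± 0.332% in WT (SD, n = 6). Their summed level was 1997 to 7234 CPM in KI-BAPN, 2977 to 8029 CPM in KI, 2420 to 6630 CPM in WT-BAPN and 7141 to 21491 CPM in WT. The lowest WT sum, in replicate 5, lay inside the ranges of KI-BAPN and KI, and the other WT libraries lay above all 18 libraries of the other groups. By mean and by median, 9 of the 10 genes were highest in WT, and Dnajb1 was highest in KI, which goes against the pattern by which the list was drawn up.

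**Figure D1:**
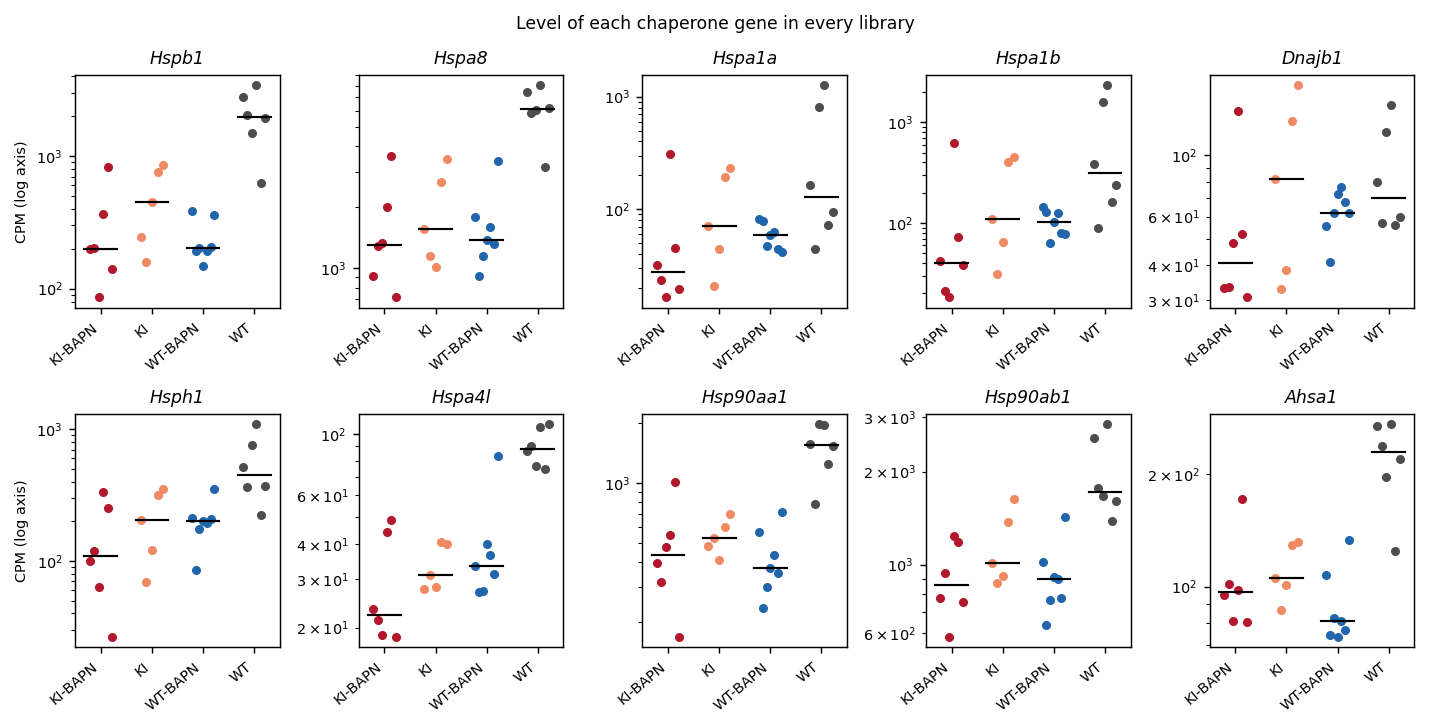
Level of each of the 10 chaperone genes in CPM (log axis) in the 24 libraries, with 1 point per library and groups from left to right KI-BAPN, KI, WT-BAPN and WT. Most WT points of Hspb1, Hspa8, Hsp90aa1 and Ahsa1 sit above every other library, whereas Hspa1a and Hspa1b spread widely within WT and Dnajb1 overlaps in all 4 groups.

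Hspb1 (ENSMUSG00000004951, chromosome 5, 135887919 to 135889563 on the plus strand of GRCm38) encodes HSP27, a small heat shock protein that holds unfolding proteins and binds actin filaments. Its lowest, median and highest levels were 85.8, 199 and 821 CPM in KI-BAPN. The 5 KI libraries were at 159, 243, 447, 759.6 and 862 CPM, WT-BAPN ran from 148 over a median of 203 to 385 CPM, and WT ran from 624 over a median of 1979 to 3420 CPM. Every WT-BAPN library was below every WT library, and the KI and KI-BAPN ranges overlapped only with WT replicate 5. The fitted log2 differences were -2.76 ± 0.52 (SE) for KI-BAPN minus WT, -2.05 ± 0.54 for KI minus WT and -3.09 ± 0.50 for WT-BAPN minus WT. Without WT replicate 5 they were -2.95, -2.24 and -3.27. Without KI-BAPN replicate 5, the highest KI-BAPN library, KI-BAPN minus WT was -3.37. Per kilobase of the deposited gene length Hspb1 had 293 CPM in KI-BAPN, 479 in KI, 234 in WT-BAPN and 1986 in WT. On that scale it was the highest of the 10 genes in KI and WT and the third highest, after Hspa8 and Hsp90ab1, in both BAPN groups.

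Among the HSP70s, Hspa8 (ENSMUSG00000015656, chromosome 9, 40800984 to 40810087 on the plus strand of GRCm38) encodes HSC70, the constitutive form that folds new proteins and uncoats clathrin vesicles. It had the highest mean CPM of the list in every group. The small nucleolar RNA genes Snord14c, Snord14d and Snord14e share annotated exon bases with it. Lowest, median and highest levels were 714, 1303 and 3579 CPM in KI-BAPN and 917, 1379 and 3373 CPM in WT-BAPN. The KI libraries were at 1015, 1148, 1553, 2671 and 3447 CPM, and WT ran from 3177 over a median of 6144 to 8044 CPM. WT replicate 5, at 3177 CPM, overlapped with the top library of each of the other groups, and the other 5 WT libraries lay at 5854 CPM or more, above all 18. The log2 differences were -1.91 ± 0.40 for KI-BAPN minus WT, -1.64 ± 0.42 for KI minus WT and -1.90 ± 0.38 for WT-BAPN minus WT. Leaving out WT replicate 5 gave -2.04, -1.77 and -2.03.

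Hspa1a (ENSMUSG00000091971, chromosome 17, 34969190 to 34972156) and Hspa1b (ENSMUSG00000090877, chromosome 17, 34956436 to 34959238), both on the minus strand of GRCm38, encode the stress-inducible HSP70. The genes are near copies: 58.8% of the 50-base windows of the Hspa1a transcript occurred exactly in that of Hspa1b, so the authors' counting could have divided reads between them, and an exon of Hspa1a overlaps one of Gm20481 on the opposite strand. The count of Hspa1b was 0.890 to 2.52 times that of Hspa1a over the 24 libraries. Their sum does not depend on how reads were divided within the pair. The read counter is not given, so reads that fit both genes could also have been left uncounted, which would lower the sum. It was 34.8, 66.0 and 931 CPM (lowest, median and highest) in KI-BAPN, 51.7 to 686 CPM in KI with a median of 182, 111, 161 and 227 CPM in WT-BAPN, and 134, 443 and 3608 CPM in WT.

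No comparison of the inducible pair separated WT from another group. Singly, Hspa1b was at 30.9, 64.2, 109.9, 399.7 and 456 CPM in the KI libraries and at 89.7, 160.3, 238, 388, 1602 and 2343 CPM in the WT libraries. Only WT replicates 3 and 4 lay above all 18 libraries of the other groups for either gene, and KI-BAPN replicate 4, at 618 CPM of Hspa1b, lay above 4 of the 6 WT libraries. The highest WT library had 28.3 times the lowest for Hspa1a and 26.1 times for Hspa1b, against 1.45 times for Hspa4l and 2.53 times for Hspa8. The log2 differences of WT-BAPN minus WT, -2.77 ± 0.80 for Hspa1a and -2.96 ± 0.87 for Hspa1b, became -1.98 and -2.26 without WT replicate 4. For KI minus WT they were -1.86 ± 0.88 and -1.92 ± 0.95, and -1.07 and -1.22 without that library. For KI-BAPN minus WT they were -2.44 ± 0.84 and -2.57 ± 0.91, and -3.89 and -4.38 without KI-BAPN replicate 4, but -1.66 and -1.87 without WT replicate 4. Without WT replicate 5 the 3 differences, in the order KI-BAPN, KI and WT-BAPN minus WT, were -2.66, -2.08 and -2.99 for Hspa1a and -2.78, -2.13 and -3.17 for Hspa1b.

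**Figure D2:**
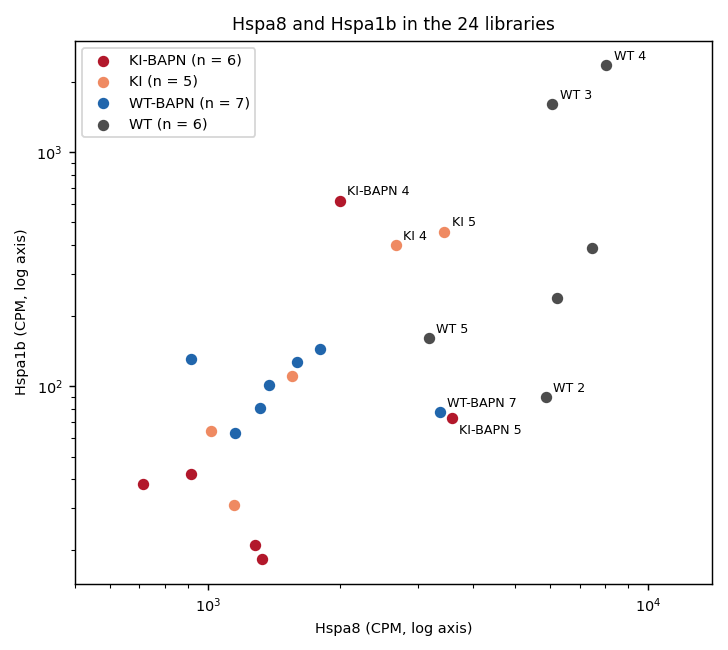
Hspa8 against Hspa1b in CPM (both log axes), 1 point per library, coloured by group. WT replicates 3 and 4 are high in both genes, WT replicate 2 and KI-BAPN replicate 5 are high in Hspa8 with Hspa1b at 89.7 and 73.1 CPM, and KI-BAPN replicate 4 is at 618 CPM of Hspa1b with 1997 CPM of Hspa8.

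The HSP110 genes Hspa4l and Hsph1 encode nucleotide exchange factors that let HSP70 release its clients. Hspa4l (ENSMUSG00000025757, chromosome 3, 40744495 to 40796103, plus strand) had lowest, median and highest levels of 18.5, 22.3 and 49.0 CPM in KI-BAPN, 27.5, 31.0 and 40.6 CPM in KI, 26.8, 33.4 and 83.1 CPM in WT-BAPN and 74.6, 88.3 and 108 CPM in WT. Every KI-BAPN and every KI library was below every WT library, and of the WT-BAPN libraries replicate 7 alone, at 83.1 CPM, reached the WT range. It was the steadiest of the 10 genes within WT and the lowest per kilobase, with 2.54 CPM in KI-BAPN, 2.91 in KI, 3.46 in WT-BAPN and 7.85 in WT. The log2 differences were -1.63 ± 0.28 for KI-BAPN minus WT, -1.43 ± 0.29 for KI minus WT and -1.18 ± 0.26 for WT-BAPN minus WT. They were -1.68, -1.48 and -1.23 without WT replicate 5.

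Hsph1 (ENSMUSG00000029657, chromosome 5, 149614287 to 149636376, minus strand) encodes HSP105, the inducible member. It averaged 149 ± 118 CPM in KI-BAPN, 213 ± 122 CPM in KI, 204 ± 79.2 CPM in WT-BAPN and 555 ± 318 CPM in WT (SD, n = 6, 5, 7 and 6). WT replicate 5, at 223 CPM, lay inside the ranges of all other groups, and the other WT libraries, at 365 to 1087 CPM, lay above all 18. WT replicates 3 and 4 were again the highest, at 761 and 1087 CPM. The log2 differences were -1.90 ± 0.51 for KI-BAPN minus WT, -1.38 ± 0.54 for KI minus WT and -1.44 ± 0.48 for WT-BAPN minus WT. With WT replicate 5 left out they were -2.06, -1.54 and -1.61, and with WT replicate 4 left out -1.59, -1.07 and -1.14.

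The HSP90 system is represented by the inducible Hsp90aa1, the constitutive Hsp90ab1 and Ahsa1, a co-chaperone that speeds the ATPase cycle of HSP90. Hsp90aa1 (ENSMUSG00000021270, chromosome 12, 110690605 to 110702728, minus strand) was at 168, 435 and 1007 CPM in KI-BAPN, at 407, 481, 528, 601 and 698 CPM in KI, at 235, 371 and 718 CPM in WT-BAPN and at 784, 1556 and 1968 CPM in WT. Here the lowest WT library was replicate 2, and of the 18 other libraries KI-BAPN replicate 5 alone lay above it. Hsp90ab1 (ENSMUSG00000023944, chromosome 17, 45567775 to 45573271, minus strand) averaged 914 ± 257 CPM in KI-BAPN, 1162 ± 330 CPM in KI, 921 ± 254 CPM in WT-BAPN and 1972 ± 592 CPM in WT (SD). Every KI-BAPN library was below every WT library for Hsp90ab1, while KI replicate 5, at 1632 CPM, and WT-BAPN replicate 7, at 1427 CPM, reached into the WT range of 1383 to 2844 CPM.

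Ahsa1 (ENSMUSG00000021037, chromosome 12, 87266479 to 87273998, plus strand) averaged 105 ± 33.7 CPM in KI-BAPN, 111 ± 19.2 CPM in KI, 89.8 ± 22.5 CPM in WT-BAPN and 219.6 ± 54.9 CPM in WT (SD). WT replicate 5, at 124 CPM, overlapped with all 3 other groups, and the other WT libraries lay at 196 to 271 CPM, above all 18. The log2 differences for KI-BAPN minus WT, KI minus WT and WT-BAPN minus WT were -1.64 ± 0.34, -1.48 ± 0.36 and -1.83 ± 0.32 for Hsp90aa1. For Hsp90ab1 they were -1.11 ± 0.24, -0.76 ± 0.25 and -1.10 ± 0.23, and for Ahsa1 -1.07 ± 0.21, -0.99 ± 0.22 and -1.29 ± 0.20. Without WT replicate 5 the same differences were -1.69, -1.53 and -1.88 for Hsp90aa1, -1.19, -0.85 and -1.18 for Hsp90ab1 and -1.19, -1.11 and -1.41 for Ahsa1. The constitutive HSP90 gene thus had the smaller drop of the HSP90 pair in each of the 3, a difference between genes that was not tested.

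Dnajb1 (ENSMUSG00000005483, chromosome 8, 83608193 to 83612653, plus strand) encodes HSP40, the J-domain partner of inducible HSP70 and a feedback inhibitor of HSF1. It was at 30.7, 40.8 and 143 CPM in KI-BAPN, at 32.9, 38.6, 82.2, 133 and 178 CPM in the KI libraries, at 41.2, 62.0 and 76.9 CPM in WT-BAPN and at 56.1, 69.8 and 152 CPM in WT. No WT library lay above all 18 others, and 9 of the 18 lay above the lowest WT library. Its means were 56.8 ± 43.4 CPM in KI-BAPN, 92.9 ± 62.3 CPM in KI, 62.5 ± 11.8 CPM in WT-BAPN and 87.5 ± 39.9 CPM in WT (SD). The log2 differences were -0.62 ± 0.41 for KI-BAPN minus WT, 0.09 ± 0.42 for KI minus WT and -0.48 ± 0.39 for WT-BAPN minus WT. Without WT replicate 5 they were -0.72, -0.01 and -0.58, and without KI replicate 5 KI minus WT was -0.29. Dnajb1 belongs to the list by its function, and its levels did not single out WT.

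**Figure D3:**
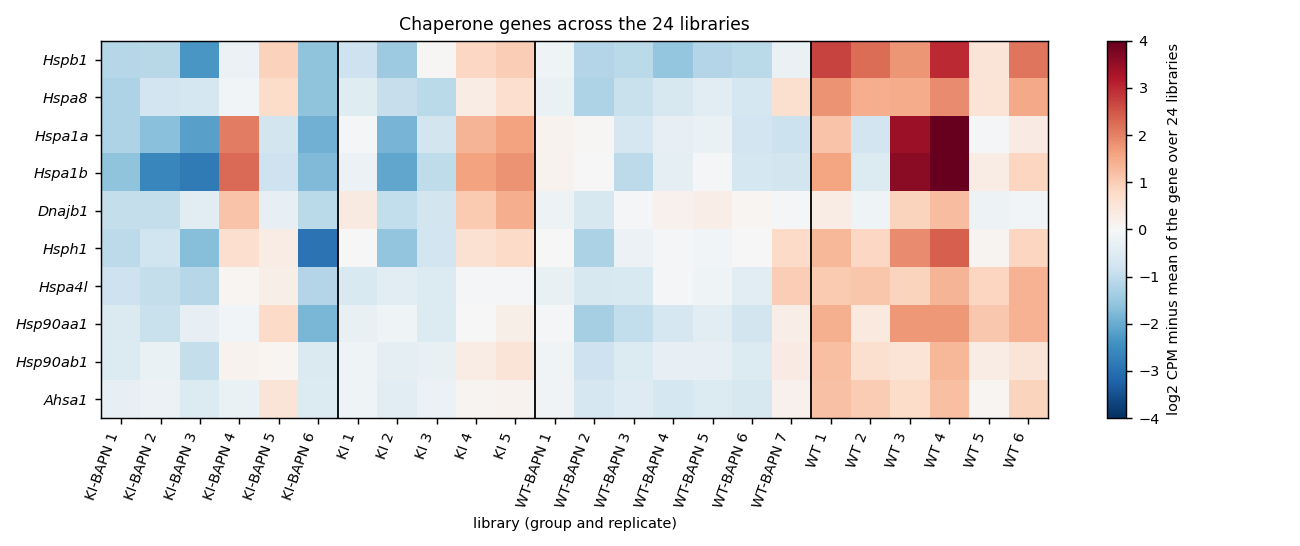
Log2 CPM of each gene minus its mean over the 24 libraries, with genes as rows and libraries as columns in the order KI-BAPN, KI, WT-BAPN and WT. WT columns are high in most rows, WT replicate 5 less so. Among the other libraries, the high columns are replicates 4 and 5 of both KI groups and WT-BAPN replicate 7.

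Within each group a few libraries carried the highest values. KI-BAPN replicate 4 was the highest of its group for Hsp90ab1, Hspa1a, Hspa1b, Hsph1 and Dnajb1, and KI-BAPN replicate 5 for Hspb1, Hsp90aa1, Ahsa1, Hspa8 and Hspa4l. KI replicate 5 was the highest KI library for 9 genes, and KI replicate 4 for Hspa4l. The adipocyte marker sum of KI replicate 5 was 8091 CPM, while KI replicates 1 to 4 had 424 to 1547 CPM. It also had endothelial markers at 1274 CPM, against 348 to 730 CPM, and 14.7% of its counts on mitochondrial genes, against 6.96 to 8.71%. Their part in its chaperone levels was not tested. Without KI replicate 5 the log2 differences of KI minus WT were -2.35 for Hspb1, -1.94 for Hspa8, -2.30 for Hspa1a, -2.41 for Hspa1b and -1.64 for Hsph1, and the members' median was -1.61. In the same fit it was -1.58 for Hsp90aa1, -0.92 for Hsp90ab1, -1.06 for Ahsa1 and -1.51 for Hspa4l. WT-BAPN replicate 7 led for 6 genes, Hsp90aa1, Hsp90ab1, Ahsa1, Hspa8, Hspa4l and Hsph1, and WT replicate 4 for 8. The libraries that led for Hspa8 in the BAPN groups also held the highest summed levels of 16 chaperones of the endoplasmic reticulum, 7755 CPM in KI-BAPN replicate 5 and 8178 CPM in WT-BAPN replicate 7. All other libraries were lower in that sum, with WT at 3882 to 6325 CPM. The part of these in the Hspa8 levels was not tested.

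As a list, the members had a median log2 difference of -1.77 for KI-BAPN minus WT, -1.46 for KI minus WT and -1.64 for WT-BAPN minus WT, beside medians of -0.03, -0.01 and -0.04 over all 14216 genes. These comparisons share the WT libraries, and the WT level chose the genes, so nothing is read from the size of these medians. Without WT replicate 5 the medians were -1.87, -1.53 and -1.74. All libraries of KI-BAPN lay below all of WT for 2 members (0.858% of all genes), those of KI for 2 members (1.27%) and those of WT-BAPN for 2 members (0.872%). Without WT replicate 5 this held for 6 members in each comparison, beside 3.66%, 3.65% and 2.38% of all genes. Hspb1, Hspa8, Ahsa1 and Hsph1 were among the 6 in all 3 comparisons.

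Other measures were set beside the chaperones. Smooth muscle markers (8 of 8 tested) summed to 10433 to 39722 CPM in KI-BAPN, 23378 to 53873 CPM in KI, 14975 to 42535 CPM in WT-BAPN and 11347 to 56462 CPM in WT. Their means were 27253 CPM in KI-BAPN, 37162 CPM in KI, 26674 CPM in WT-BAPN and 41155 CPM in WT, so the BAPN groups had the lower means and every group's range overlapped with that of WT. With the mean log2 level of these markers as a covariate, an alternative added after the data were seen, the members' medians were -1.33 for KI-BAPN minus WT, -1.34 for KI minus WT and -1.01 for WT-BAPN minus WT. Hspb1 was at -1.92 for WT-BAPN minus WT in that fit, against -3.09 without the covariate. The 24 immediate early genes, which are induced within minutes by many stimuli, summed to 804 to 2719 CPM in KI-BAPN, 1346 to 2900 CPM in KI, 1478 to 2449 CPM in WT-BAPN and 2136 to 4681 CPM in WT. The part of early response and of tissue handling in the chaperone levels was not tested.

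The comparisons that leave out WT on plain water were not used to choose the genes and were tested. The first concerned BAPN in KI mice. None of the 10 members passed edgeR's quasi-likelihood test at a Benjamini-Hochberg adjusted p of 0.05 in KI-BAPN minus KI, and 0.0352% of all genes did. None was under an unadjusted p of 0.05 either, and DESeq2 and limma voom called 0. The log2 differences were all below 0, with a median of -0.43 beside -0.03 over all genes, of which 53.7% were below 0. The intervals were wide. That of Dnajb1, at -0.71, ran from -1.58 to 0.16 (95% interval, edgeR adjusted p = 0.572), that of Hspb1, also at -0.71, from -1.76 to 0.34 (edgeR adjusted p = 0.647), and that of Hspa8, at -0.27, from -1.10 to 0.57 (edgeR adjusted p = 0.841).

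The narrowest interval in KI-BAPN minus KI was that of Ahsa1, at -0.08 from -0.53 to 0.36, and the widest that of Hspa1b, at -0.65 from -2.51 to 1.21. The other 5 lay between -0.58 for Hspa1a and -0.16 for Hsp90aa1, with edgeR adjusted p of 0.647 to 0.886. No member's libraries were all lower in KI-BAPN than in KI (0.169% of all genes). The intervals of Hspb1, Hspa1a, Hspa1b, Hspa8, Hsph1 and Dnajb1 all reached below -1, so that for these genes a drop by more than 1 log2 unit and no change were both within the fit's error. Without KI-BAPN replicate 4 Hspa1a was at -2.03, Hspa1b at -2.46 and Dnajb1 at -1.24, and without KI-BAPN replicate 5 Hspb1 was at -1.32. Leaving out KI replicate 5, the highest KI library for 9 members, went the other way, and the members' median was -0.15. Hspb1 was then at -0.41, Dnajb1 at -0.34, Hspa1b at -0.16, Hspa1a at -0.14 and Hspa8 at 0.03. The median of -0.43 thus rested largely on KI replicate 5. The lowest edgeR adjusted p over all single libraries left out was 0.185 for Dnajb1, 0.200 for Hspa1b and 0.235 for Hspa1a.

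The second tested comparison set KI against WT on BAPN. None of the 10 members passed in KI-BAPN minus WT-BAPN, where 0.00703% of all genes passed, and none was under an unadjusted p of 0.05 or called by DESeq2 or limma voom. The log2 differences ran from -0.46 for Hsph1 to 0.39 for Hspa1b, with 5 below 0 and a median of 0.09 beside -0.02 over all genes. Hspa4l, at -0.45 (95% interval -0.99 to 0.10, edgeR adjusted p = 0.448), had the smallest p. Hspa8 was at -0.01 (-0.78 to 0.76, edgeR adjusted p = 0.993) and Hsp90ab1 at -0.01 (-0.48 to 0.46, edgeR adjusted p = 0.989), so that for Hsp90ab1 the interval reached no difference of 0.5 log2 units or more. Hspa1a, at 0.33 (-1.26 to 1.92), and Hspa1b (-1.32 to 2.10) had the widest intervals. Without KI-BAPN replicate 4 Hspa1a was at -1.12 and Hspa1b at -1.42, so the direction of the inducible pair rested on that library. Likewise Hspb1, at 0.33, and Hsp90aa1, at 0.19, were at -0.28 and -0.16 without KI-BAPN replicate 5. No member's libraries were all lower in KI-BAPN than in WT-BAPN (0.113% of all genes).

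**Figure D4:**
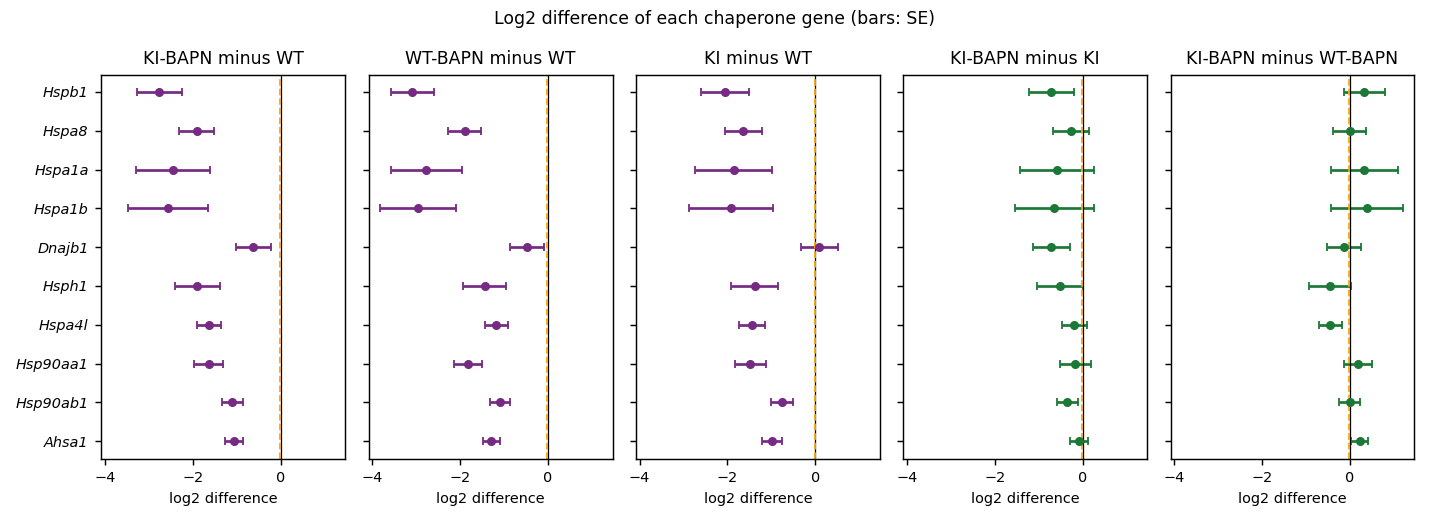
Log2 difference of each of the 10 genes with its SE in 5 comparisons, purple where WT on plain water is part of the comparison and was used to choose the genes, green for the other 2, with the median of all genes as a dashed orange line. The green values lie between -0.71 and 0.39 and the purple ones reach -3.09.

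The wider chaperone and stress genes were not used to choose the members. Of 120 such genes in 11 lists, all but Hspb3 were tested. In WT-BAPN minus WT 22 of 119 fell and none rose (edgeR adjusted p under 0.05), beside 2.7% of all genes tested that fell and 3.44% that rose. Their median log2 difference was -0.37, beside -0.04 over all genes. These lists too were drawn up with earlier results of the libraries known. The comparison also shares the WT libraries whose levels chose the members, so the calls are not separate evidence about the members. By setting, the count was 34 with DESeq2 and 64 with limma voom, and single libraries left out gave 14 (without WT replicate 1, WT replicate 4 or WT-BAPN replicate 5) to 43 (without WT-BAPN replicate 7), and 28 without WT replicate 5. The share of all genes called was not counted for these settings, so the size of these counts is not interpreted.

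Partners of HSP90 and HSP70 made up 10 of the 22, and their 3 lists held 16, 14 and 10 of the 119 genes tested. Because these lists are large, the count is not read as a concentration in them. Of 16 HSP90 co-chaperones 4 fell. Fkbp4, an immunophilin of steroid receptor complexes, was at 116 ± 37.5 CPM in WT-BAPN and 282 ± 47.5 CPM in WT (SD, n = 7 and 6), a log2 difference of -1.28 ± 0.21 (SE, edgeR adjusted p = 0.00964). Stip1, the adaptor HOP that links HSP70 to HSP90, was at 122 ± 35.8 CPM in WT-BAPN and 358 ± 122 CPM in WT (SD), a log2 difference of -1.56 ± 0.30 (edgeR adjusted p = 0.0107). Cacybp and the dynein-linked Nudc had log2 differences of -1.10 ± 0.25 and -0.77 ± 0.18. Of 14 other HSP70s and exchange partners 3 fell: St13, which steadies HSP70 bound to its client (-0.76 ± 0.16), and the BAG domain proteins Bag5 (-0.42 ± 0.11) and Bag2 (-0.90 ± 0.24). Of 10 other J-domain proteins 3 fell: Dnaja4 (-1.87 ± 0.35, edgeR adjusted p = 0.0107), Dnajb2 (-0.97 ± 0.24) and Dnaja2 (-0.30 ± 0.09).

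Of 5 other small heat shock proteins 2 fell, Hspb8, which works with BAG3 in the removal of damaged muscle proteins (-1.07 ± 0.20, edgeR adjusted p = 0.0107), and Cryab, αB-crystallin (-1.22 ± 0.32, edgeR adjusted p = 0.0287). Of 14 genes of the chaperonin TRiC and its feeder prefoldin, which fold actin and tubulin, 4 fell: Cct3 (-0.97 ± 0.21), Cct7 (-0.94 ± 0.21), Cct6a (-0.58 ± 0.14) and Pfdn2 (-0.50 ± 0.12). Of 6 mitochondrial chaperones 2 fell, the matrix chaperonin pair Hspe1 (-1.46 ± 0.29) and Hspd1 (-1.19 ± 0.27). Of 8 ubiquitin, oxidative stress and autophagy genes 1 fell, the autophagy receptor Sqstm1 (-0.57 ± 0.15).

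None of 16 chaperones of the endoplasmic reticulum passed in WT-BAPN minus WT, Dnajc3 having the smallest edgeR adjusted p, 0.0915, and their median was -0.24. None of 4 heat shock factors and regulators passed, and Hsf1 was at 54.6 ± 7.51 CPM in WT-BAPN and 61.5 ± 15.5 CPM in WT (SD). Neither of the 2 cold-induced RNA-binding proteins passed, Rbm3 having the smaller edgeR adjusted p, 0.416. Of 24 immediate early genes 3 fell: the nuclear receptor Nr4a3 (-3.07 ± 0.64), Ier2 (-1.02 ± 0.28) and the mRNA decay factor Zfp36 (-0.99 ± 0.29). Nr4a3 was at 308 CPM in WT replicate 5, and its log2 difference was -2.45 without that library. The edgeR adjusted p of the called genes given without one lay between 0.0121 for Hspe1 and 0.0485 for Dnaja2. With the smooth muscle level as a covariate 14 of the 22 genes were still called and 8 were not: Ier2, Zfp36, Dnajb2, Dnaja2, Bag5, Bag2, Cryab and Sqstm1. Over all 33 alternatives, each single library left out among them, 13 of the 22 genes lost their call in none, Fkbp4, Stip1, Dnaja4, Hspb8, Hspe1 and Hspd1 among them. Those 8 genes and Pfdn2 lost it in 2 (Dnajb2) to 22 alternatives (Dnaja2).

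**Figure D5:**
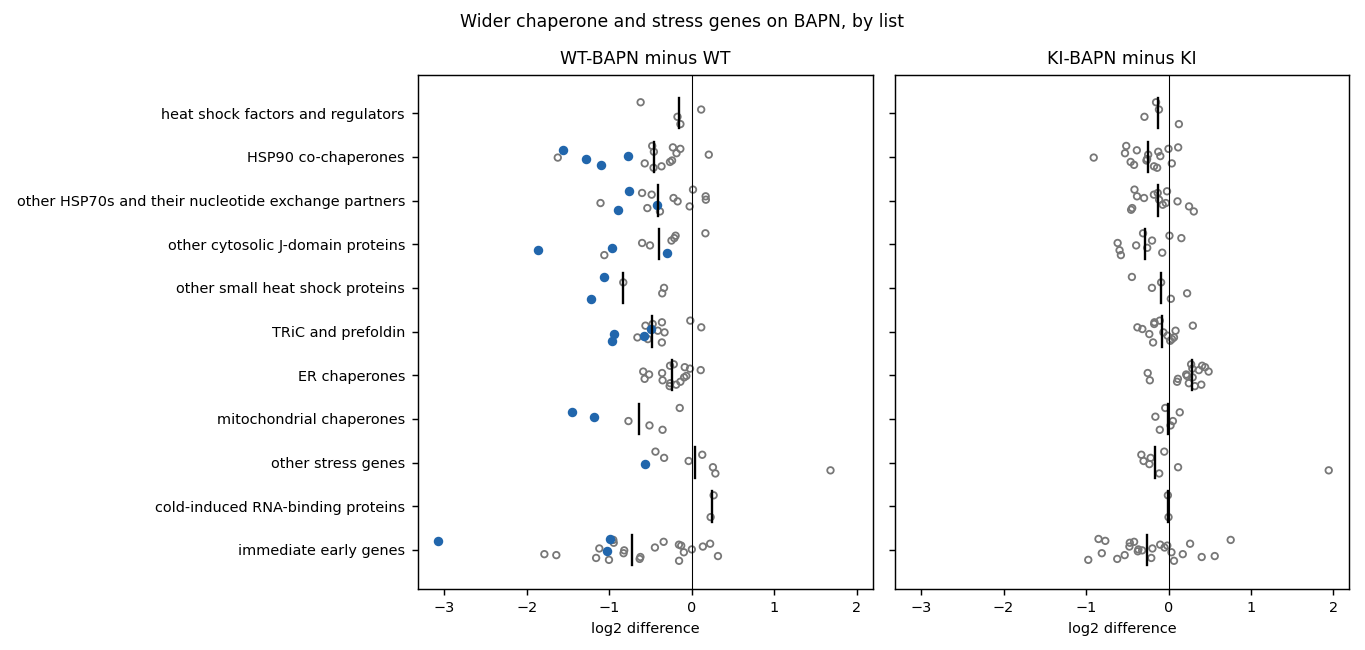
Log2 difference of the 119 wider chaperone and stress genes by list, 1 point per gene, filled blue where the edgeR adjusted p is under 0.05, with a black tick at each list's median. In WT-BAPN minus WT all 22 filled points lie below 0 and none belongs to the endoplasmic reticulum list.

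In KI minus WT none of the 119 genes passed edgeR's test, while 0.19% of all genes did. At an unadjusted p under 0.05 there were 41, 39 lower and 2 higher, DESeq2 called 13 and limma voom 12, and the median was -0.31 beside -0.01 over all genes. Dnaja4 had the smallest edgeR adjusted p, 0.0799, and without WT replicate 5 edgeR called 6 of the 119. The 16 chaperones of the endoplasmic reticulum had a median of -0.55 in KI minus WT. All 16 were below 0, as were 51.0% of all genes. In KI-BAPN minus KI none passed, 6 were under an unadjusted p of 0.05, all lower, and DESeq2 called 1 and limma voom 0. Ppp5c, a phosphatase of HSP90 complexes, had the smallest edgeR adjusted p, 0.136. In KI-BAPN minus WT-BAPN none passed, 9 were under an unadjusted p of 0.05 (5 higher and 4 lower), and DESeq2 called 1 and limma voom 0. The test of whether the BAPN difference itself differed between KI and WT called none of the 119 and 0% of all genes. At an unadjusted p under 0.05 there were 23, and DESeq2 called 0 and limma voom 1. The calls in WT and their absence in KI are thus not shown to differ. Shares over all genes were counted for edgeR's adjusted p alone. The counts here by unadjusted p, DESeq2 and limma voom have no such share beside them, and nothing is read from them.

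The genes whose levels followed the members most closely were ranked by the Spearman correlation, over 24 libraries, between their log2 CPM and the mean of the members, among 10842 genes of at least 5 CPM on average. The libraries share the group difference that chose the members, so the ranking is a description. The first 10 were Zbtb2 (0.963), Stip1 (0.952), P4ha1 (0.921), Dnaja1 (0.917), Fxr1 (0.917), Dnaja4 (0.914), Rnf41 (0.900), Jmy (0.898), Nop56 (0.896) and Nr4a3 (0.896). Of these, Stip1, Dnaja1 and Dnaja4 are chaperone genes of the wider lists, and P4ha1 encodes a subunit of collagen prolyl 4-hydroxylase. When deviations from the group means were ranked in place of levels, Zbtb2 was 7th, Dnaja1 10th, Rnf41 17th, Stip1 20th and P4ha1 23rd, while Nr4a3 was 638th. Zbtb2, a zinc finger transcription factor, was at 15.1 ± 4.94 CPM in KI-BAPN, 17.9 ± 5.11 CPM in KI, 16.4 ± 1.53 CPM in WT-BAPN and 25.2 ± 3.49 CPM in WT (SD). The 5 genes with the lowest correlation were Zfp512 (-0.880), Sirt5 (-0.867), H1f0 (-0.861), Dcaf4 (-0.860) and Zfand1 (-0.858). The linker histone H1f0 was at 187 ± 113 CPM in KI-BAPN, 149 ± 47.4 CPM in KI, 158 ± 38.2 CPM in WT-BAPN and 69.6 ± 11.2 CPM in WT (SD).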

How the data were processed

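Poly(A) RNA of 24 mouse aortas was analysed from the read counts per gene that the authors deposited, not normalized. The submitters' processing notes name GRCm38 and mm10 as builds, and Trim Galore, FastQC, HISAT2 and DESeq2 as tools. Their versions, the strand setting and the read counter are not given in the sources used, so reads of overlapping or antisense genes cannot be told apart. The deposited gene lengths served for levels per kilobase. The deposited coordinates differ from GENCODE M21, so positions are those of GENCODE M21 or RefSeq on GRCm38. Totals were 13127645 to 26490651 counts, and 0 columns were left unmatched.

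In R 4.3.3, edgeR 4.0.16 was run with a mean for each of the 4 groups, TMM scaling, filterByExpr and robust quasi-likelihood tests, adjusted by Benjamini-Hochberg over 14216 genes. A call is an adjusted p under 0.05. Log2 levels use a prior count of 2. Steps were tested on simulated data. Of 100 genes changed by 1 log2 unit, 41 were recovered in KI-BAPN minus KI and 50 in WT-BAPN minus WT. Of 100 changed by 2 log2 units, 85 were recovered in each. A missing call is therefore not evidence of no change. The members and all gene lists were chosen with earlier results of these data known. Named were all members, up to 4 called genes per list with the smallest adjusted p (else the smallest), the 10 most and 5 least alike genes. Alternatives were DESeq2 size factors, DESeq2 1.42.0 and limma 3.58.1 voom with quality weights per library, called limma voom here. Further ones were no filter, fewer groups, the replicate number as a block and each library left out. Another left out 4 libraries rich in other tissue, WT replicate 5 and KI replicates 1, 2 and 5. That choice was taken over from an earlier analysis of these data and does not cover KI-BAPN replicate 3. After the data were seen 2 more were added, a smooth muscle covariate and edgeR's newer method. No 2 libraries held the same counts (smallest chi-square per degree of freedom within a group 30.8). Figures were drawn with matplotlib 3.10.9.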

Additional observations from a re-analysis of the deposited data

Results flagged for a closer look

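In 13 of 128 combinations of a gene and a group, over 32 genes, 1 library lay far from the rest of its group by Dixon's test on log2 CPM, which by chance picks about 1 in 20. Of the members, Hspa1a was at 312 CPM and Dnajb1 at 143 CPM in KI-BAPN replicate 4, and Ahsa1 at 171 CPM in KI-BAPN replicate 5, each far above the rest of its group. Hspa4l was at 83.1 CPM in WT-BAPN replicate 7, far above the other WT-BAPN libraries, and Hspa8 at 3177 CPM in WT replicate 5, far below the other WT libraries, which lay at 5854 to 8044 CPM. WT replicate 5 also held the lowest Bag5 level of its group, 35.6 CPM, and the highest Nr4a3 level, 308 CPM. Other high libraries were KI-BAPN replicate 5 for Ier2 (82.5 CPM), WT-BAPN replicate 7 for Cct7 (293 CPM) and WT-BAPN replicate 1 for Dnajb2 (89.7 CPM). Other low libraries were KI replicate 3 for Cacybp (36.6 CPM), WT-BAPN replicate 2 for Bag5 (25.7 CPM) and WT-BAPN replicate 6 for Sqstm1 (262 CPM).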

How the results depend on the processing

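No alternative called a member in KI-BAPN minus KI or KI-BAPN minus WT-BAPN, single libraries left out included (0 to 0 calls). Single libraries left out moved the members' median to -2.05 to -1.59 in KI-BAPN minus WT, -1.61 to -1.15 in KI minus WT and -1.82 to -1.48 in WT-BAPN minus WT. The count of wider chaperone and stress genes called in WT-BAPN minus WT was 22, and it was 34 with DESeq2, 64 with limma voom and 14 to 43 without 1 library. In KI minus WT it was 0, and it was 13 with DESeq2, 12 with limma voom, 1 with only the groups compared, 3 with the smooth muscle covariate, 4 with the newer method and 0 to 6 without 1 library. DESeq2 called 1 in KI-BAPN minus KI and 1 in KI-BAPN minus WT-BAPN, and limma voom 1 in the interaction. With the replicate block these counts were 33 in WT-BAPN minus WT and 3 in KI minus WT. Deviations of same-numbered libraries from their group means had correlations of -0.55 to 0.46 (33 pairs, 14 over 0.1). Libraries of different numbers were not compared, so these values cannot tell whether the numbers pair the samples. The main fit did not use the numbers as pairs. The interaction needs all 4 groups and was not run on fewer. Without the 4 libraries rich in other tissue the count in WT-BAPN minus WT was 33. The share of all genes called was not counted for any of these alternatives.

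Signs that turned, all of members that were not called, were in KI-BAPN minus WT-BAPN unless stated. Hsp90ab1 and Hspa8 were at 0.000806 and 0.000528 with DESeq2 size factors, 0.000799 and 0.000540 with DESeq2, 0.14 and 0.098 with limma voom and 0.10 and 0.14 with the replicate block. Hspa1a and Hspa1b were at -0.53 and -0.77 with limma voom, -0.81 and -1.08 with the replicate block and -0.15 and -0.23 with the smooth muscle covariate, where Hspb1 was at -0.066 and, in KI-BAPN minus KI, Ahsa1 at 0.14 and Hspa1a at 0.046. Without 1 library the ranges were -0.12 to 0.13 for Hsp90ab1, -0.40 to 0.27 for Hspa8, -1.12 to 0.54 for Hspa1a, -1.42 to 0.62 for Hspa1b, -0.28 to 0.52 for Hspb1 and -0.16 to 0.37 for Hsp90aa1, and in KI-BAPN minus KI -0.52 to 0.013 for Hsp90aa1 and -0.66 to 0.034 for Hspa8. The cause of these turns was not tested. Every member had at least 313 counts in every library.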
